A study of Mus musculus with 12 samples.

Results

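Bile acids are made in hepatocytes from cholesterol, and the 10 genes described here cover their synthesis (Cyp7a1, Cyp8b1, Cyp27a1, Cyp7b1), their passage through the hepatocyte (Slc10a1, Abcb11) and the feedback that limits their production (Nr1h4, Nr0b2, Fgfr4, Klb). They were taken by symbol from a table of 13304 genes, and each symbol matched 1 row. The 10 genes were chosen by role with earlier results of the same libraries known, and Cyp7a1 and Nr0b2 were selected on their own Maf1 KO minus WT differences. For this reason those differences carry no test here. The libraries were total RNA of perfused liver from 12 C57Bl/6J mice aged 12 to 14 weeks, 7 WT and 5 lacking Maf1 (Maf1-/-, labelled Maf1 KO), 1 library per mouse. All of the mice had eaten chow, were fasted overnight and had then been refed for 4 h. MAF1 is the general repressor of RNA polymerase III, and Maf1 itself had 254 to 534 reads in the WT and 5 to 52 reads in the Maf1 KO libraries. The labels do not state sex, and Ddx3y, a gene of the Y chromosome, had 3880 to 7395 reads in the 12 libraries.

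In the classical pathway CYP7A1 opens bile acid synthesis and CYP8B1 decides how much of the product is cholic acid. In the alternative pathway CYP27A1 oxidizes the side chain and CYP7B1 hydroxylates the resulting oxysterols. Bile acids returning from the gut enter the hepatocyte through NTCP (Slc10a1) and leave it through the bile salt export pump (Abcb11). Inside the cell they activate FXR (Nr1h4), which induces SHP (Nr0b2), and SHP in turn restrains Cyp7a1 and Cyp8b1. Another route runs from the ileum, where FXR induces the hormone FGF15, which reaches hepatocytes through the receptor FGFR4 and its partner beta-Klotho (Klb). Feeding switches this system on, since the gallbladder then empties and bile acids return to the liver.

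Levels are log2 of reads plus 0.5 relative to a scaled library size, so 1 unit is a change by a factor of 2. The libraries held 35003720 to 55787438 reads in the listed genes in WT (median 41295043) and 34709661 to 41931441 in Maf1 KO (median 38637056). Each of the 10 genes was measured on at least 172 reads in every library. The library WT 2 stood apart from the other WT libraries before any result is given: across all genes its mean Spearman rho was 0.960 with the other WT and 0.983 with the Maf1 KO libraries. Against the GC content of the genes, its levels moved by −0.57 log2 units for each 10 points, compared with 0.14 to 0.35 in the other WT and −0.54 to 0.08 in the Maf1 KO libraries. Values without WT 2, and after removal from each library of its trend with GC content and exon length, are therefore given for the members. Corrected values are also given for the genes named from the further gene lists.

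Cyp7a1 (chromosome 4, 6265612 to 6275633, minus strand, GRCm38) was the member with the largest difference between genotypes. Its log2 level in WT ran from 6.60 through a median of 7.20 to 8.75, where the highest value was WT 2 and the next was 7.54. In the 5 Maf1 KO livers the levels were 9.0, 8.64, 8.52, 9.59 and 8.24. Each Maf1 KO liver thus lay above 6 of the 7 WT livers, and the groups overlapped through WT 2 alone. Without WT 2 its groups lay apart, as did those of 12.6% of all genes, in either direction. The means were 7.31 ± 0.73 (SD, n = 7) and 8.80 ± 0.52 (SD, n = 5), a log2 difference of 1.49 (SE 0.35) or 2.81-fold. The difference was 1.73 (SE 0.25) without WT 2 and 1.24 (SE 0.28) after the GC and length correction, and the exons of Cyp7a1 hold 39.7% GC against a median of 49.5% over 12482 genes. Leaving out a WT library that lies among the Maf1 KO values was bound to widen it.

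Cyp7a1 was also among the most variable genes within a genotype. Its SD among the 7 WT livers exceeded that of 98.3% of 7929 genes with a mean log2 level of at least 3, and its SD among the Maf1 KO livers that of 94.0%. In reads, it ran from 3651 to 17665 in WT and from 10458 to 28226 in Maf1 KO.

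Cyp8b1, the sterol 12-alpha-hydroxylase (chromosome 9, 121914356 to 121916305, minus strand), had a lower mean in Maf1 KO than in WT. WT levels ran from 8.70 (WT 2) through a median of 9.03 to 9.20. Maf1 KO levels were 8.72, 8.83, 8.24, 7.46 and 8.21. Here 3 of the Maf1 KO livers lay below all of WT and the other 2 inside the WT range. The log2 difference was −0.69 (SE 0.21, 95% interval −1.13 to −0.24), with an adjusted p of 0.192 in limma over all genes. Over 24 alternative settings the adjusted p ran from 0.0087 to 0.750. Without Maf1 KO 4, the lowest library, the difference was −0.48, and after the GC and length correction it was −0.44 (SE 0.18). Cyp8b1 varied little among WT livers (SD 0.20, above 41.5% of genes) and widely among Maf1 KO livers (SD 0.54, above 95.1%).

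The promoter of Cyp8b1 is shown together with that of Nr0b2, since both genes are known targets of the LRH-1 receptor (Nr5a2) and both means were lower in Maf1 KO liver. That of Abcb11, a textbook FXR target, is shown because its mean was not lower. These promoters were thus picked by the direction of the means, and a part of LRH-1 or FXR in the differences was not tested. The RefSeq table (GRCm38.p6) holds windows for 8 of the 10 members (2 windows for Slc10a1), and Cyp7a1 and Cyp7b1 were not matched. The 250 bases before each start were searched on both strands for 3 motifs. CAAGGNCA, the extended site of LRH-1, was found in Cyp8b1, 60 to 53 bases before the start, and in Nr0b2, 201 to 194 bases before it, and 5.53% of 32851 windows of this length hold it. AGGNCANTGNCCT, an inverted repeat with a spacer of 1 base as FXR binds it, was found in Abcb11, 63 to 51 bases before the start, and in 0.0852% of windows. It shares the letters AGGNCA with the LRH-1 motif. TATAAA was found in Cyp8b1, Nr0b2 and Slc10a1 and in 12.4% of windows. Capitals mark the matches in the sequences, which run 5′ to 3′ on the strand of the gene and end at the base before the start.
Cyp8b1, chr9:121916306-121916405, minus strand: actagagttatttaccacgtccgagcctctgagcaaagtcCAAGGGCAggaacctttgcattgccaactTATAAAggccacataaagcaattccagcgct
Nr0b2, chr4:133553126-133553375, plus strand: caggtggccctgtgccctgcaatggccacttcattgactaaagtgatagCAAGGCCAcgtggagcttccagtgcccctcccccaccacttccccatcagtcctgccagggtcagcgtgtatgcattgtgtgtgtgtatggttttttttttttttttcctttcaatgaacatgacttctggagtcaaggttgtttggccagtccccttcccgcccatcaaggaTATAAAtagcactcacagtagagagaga
Abcb11, chr2:69342617-69342716, minus strand: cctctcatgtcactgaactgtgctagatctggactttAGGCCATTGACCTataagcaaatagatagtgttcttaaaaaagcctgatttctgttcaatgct
A match describes the letters of the window only, and binding was not measured in these livers. The mean of Fgfr4 was lower in Maf1 KO as well, and its window held no LRH-1 match.

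In the alternative pathway neither enzyme passed the test in limma. Cyp27a1 (chromosome 1, 74713574 to 74737892, plus strand) ran from 8.35 through a median of 8.50 to 8.89 in WT and stood at 9.01, 8.43, 8.49, 8.55 and 8.96 in Maf1 KO. Maf1 KO minus WT was 0.12 log2 units (SE 0.13, 95% interval −0.17 to 0.41, adjusted p = 0.570). After the GC and length correction it was 0.30 (SE 0.13), and the exons of Cyp27a1 hold 53.5% GC. Cyp7b1 (chromosome 3, 18071950 to 18243338, minus strand) is known to be higher in male than in female mouse liver. It ran from 6.68 through 8.24 to 8.96 in WT and stood at 7.20, 7.75, 8.78, 6.89 and 7.56 in Maf1 KO. Its lowest WT library was WT 7, with 4904 reads against 9572 to 25481 in the others. The log2 difference was −0.46 (SE 0.37, adjusted p = 0.425), with a 95% interval from −1.27 to 0.35 that spans 0. It moved with single libraries, to −0.69 without WT 7, −0.74 without Maf1 KO 3 and −0.27 without Maf1 KO 4, and it was −0.64 (SE 0.39) with GC and length corrected. Its spread was wide in both genotypes, with an SD above that of 98.0% of genes in WT and 98.5% in Maf1 KO.

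**Figure D1:**
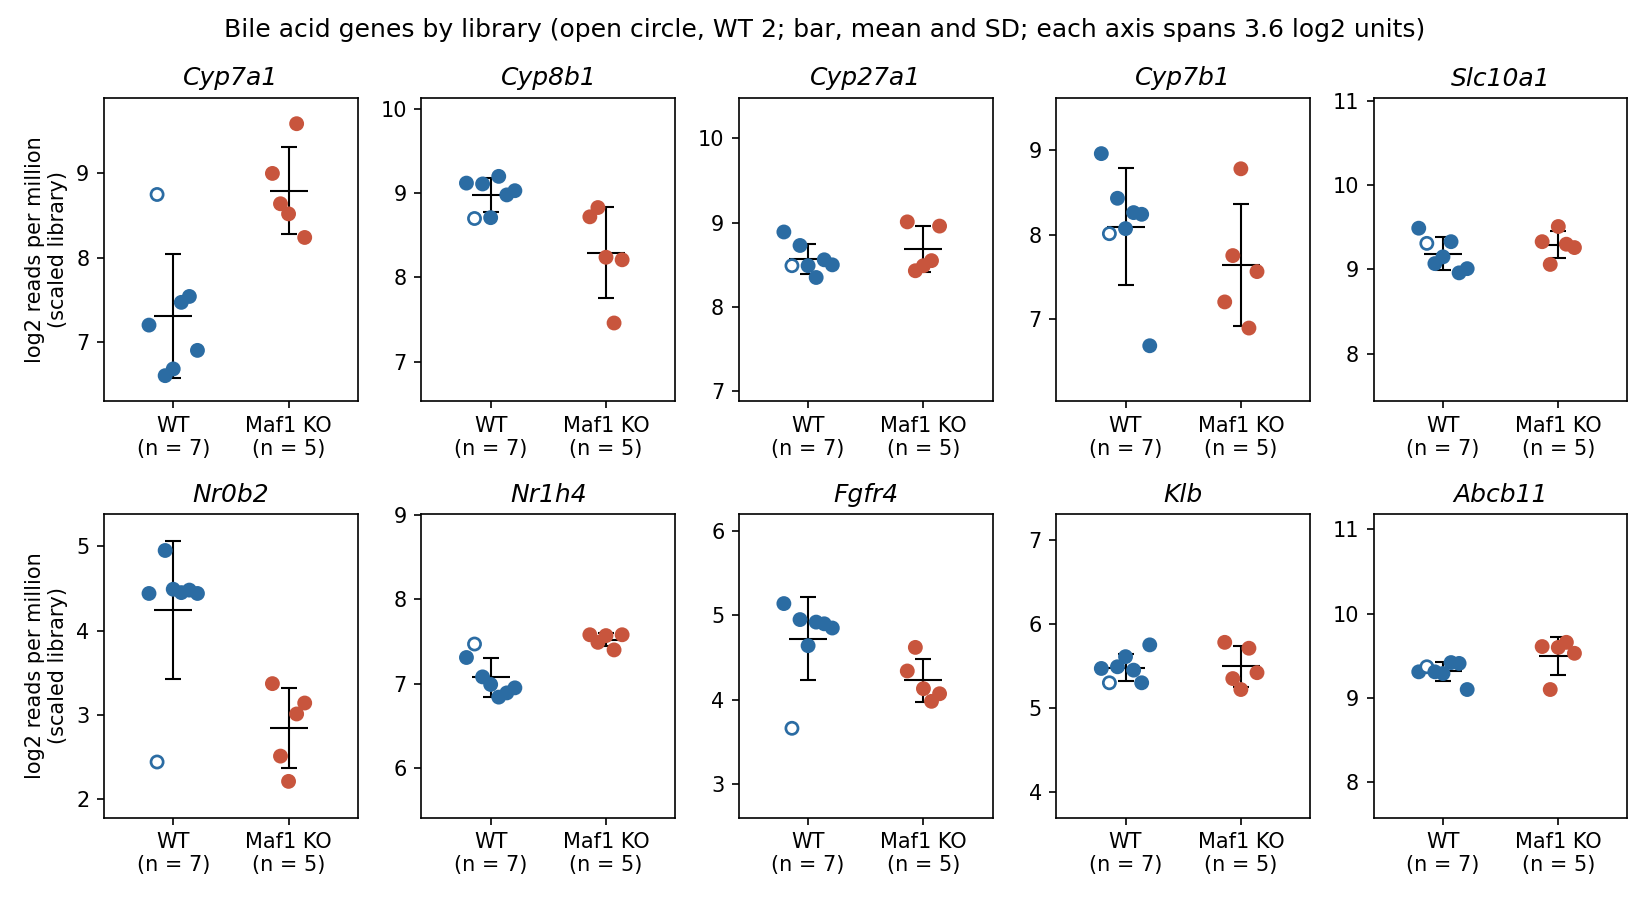
Each point is 1 library, with the log2 level on the vertical axis and the genotype on the horizontal axis. Bars give the mean and SD (n = 7 WT and n = 5 Maf1 KO), and the open circle is WT 2. WT 2 sits at 8.75 for Cyp7a1 and 2.44 for Nr0b2, among the Maf1 KO points, while the groups of Klb and Slc10a1 lie over each other.

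Within each liver the mRNA levels of the enzymes can be set against each other, here without the GC and length correction. Per kb of exon, the log2 level of Cyp7a1 minus that of Cyp8b1 was −2.77 ± 0.83 (SD, n = 7) in WT and −0.59 ± 0.93 (SD, n = 5) in Maf1 KO. Its lowest and highest values were −3.60 and −1.05 (WT 2) in WT, and −1.29 and 1.03 (Maf1 KO 4) in Maf1 KO. Cyp7a1 minus Cyp7b1 was −1.73 ± 0.98 (SD, n = 7) in WT and 0.21 ± 1.13 (SD, n = 5) in Maf1 KO, and Cyp7a1 minus Cyp27a1 was −2.41 ± 0.80 and −1.04 ± 0.63. Maf1 KO 4 held the highest Cyp7a1 and the lowest Cyp8b1 of the 12 livers and the lowest Cyp7b1 of its group. Since these ratios contain Cyp7a1, they are a description and not a further test. They set Cyp7a1 (39.7% GC) against genes of 54.8% (Cyp8b1), 42.5% (Cyp7b1) and 53.5% GC (Cyp27a1). With the correction the genotype difference moved from 1.49 to 1.24 for Cyp7a1 and from −0.69 to −0.44 for Cyp8b1. It moved from −0.46 to −0.64 for Cyp7b1 and from 0.12 to 0.30 for Cyp27a1.

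Nr0b2 (chromosome 4, 133553376 to 133556536, plus strand), which encodes the repressor SHP, was the member whose mean was lowest in Maf1 KO relative to WT. Its log2 level ran from 2.44 (WT 2) through a median of 4.45 to 4.95 in WT, and the other 6 WT libraries lay between 4.44 and 4.95. In Maf1 KO it was 3.37, 2.51, 2.21, 3.01 and 3.14, on 172 to 418 reads, against 744 to 1315 reads in the WT libraries other than WT 2 and 221 reads in WT 2. All of the Maf1 KO livers lay below these 6 WT livers, and WT 2 lay within the Maf1 KO range. Such groups, apart in either direction without WT 2, were seen for 12.6% of all genes. The means were 4.24 ± 0.82 (SD, n = 7) and 2.85 ± 0.48 (SD, n = 5), a log2 difference of −1.39 (SE 0.37). It was −1.70 (SE 0.20) without WT 2 and −1.05 (SE 0.25) in corrected values, with 57.8% GC in the exons of Nr0b2. In corrected values the 7 WT livers ran from 3.01 to 4.71 and the 5 Maf1 KO livers from 2.53 to 3.41.

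Nr1h4, the gene of FXR (chromosome 10, 89454234 to 89533585, minus strand), had a higher mean in Maf1 KO than in WT. Its log2 level ran from 6.84 through a median of 6.99 to 7.47 (WT 2) in WT and was 7.58, 7.49, 7.57, 7.40 and 7.58 in Maf1 KO. The Maf1 KO livers lay closer together than for most genes, with an SD of 0.08 that 3.00% of genes fell under. The log2 difference was 0.45 (SE 0.12, 95% interval 0.19 to 0.70) or 1.36-fold, with an adjusted p of 0.192 over all genes. The adjusted p in limma ran from 0.0024 to 0.750 over the alternatives and was 0.0071 without WT 2. WT 2 lay inside the Maf1 KO range, so leaving it out was bound to widen the difference. With GC and length corrected, Maf1 KO minus WT was 0.37 (SE 0.11).

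**Figure D2:**
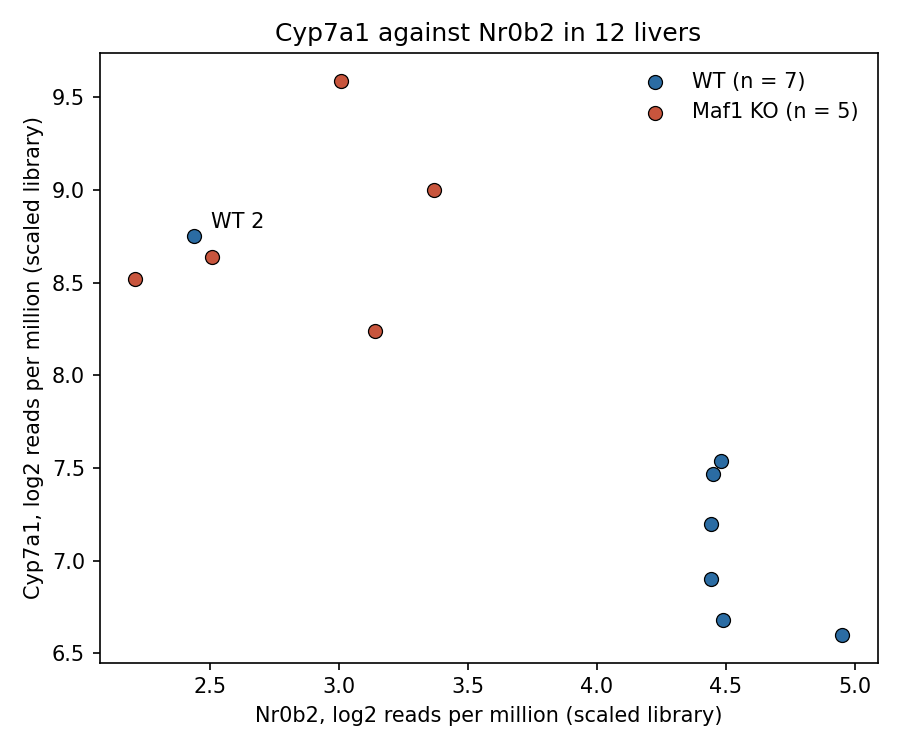
Each point is 1 liver, with the log2 level of Nr0b2 on the horizontal axis and that of Cyp7a1 on the vertical axis. The 5 Maf1 KO livers and WT 2 occupy the upper left, with Nr0b2 at 3.37 or less and Cyp7a1 at 8.24 or more, and the other 6 WT livers the lower right.

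Per kb of exon, Cyp7a1 exceeded Nr0b2 by 1.18 ± 1.52 log2 units (SD, n = 7) in WT and by 4.07 ± 0.59 (SD, n = 5) in Maf1 KO. Both genes were selected on their own differences between genotypes, so this gap is a description and not a further test. The gap is not corrected for GC, which is 39.7% in Cyp7a1 and 57.8% in Nr0b2. With the GC and length correction the genotype difference moved from 1.49 to 1.24 for Cyp7a1 and from −1.39 to −1.05 for Nr0b2. In WT 2 the excess was 4.43, against −0.23 to 1.18 in the other WT livers and 3.22 to 4.70 in the Maf1 KO livers. Within WT the log2 levels of Cyp7a1 were compared with those of the other 9 members by exact permutation of the pairings, with p adjusted over the 9 pairs. Cyp7a1 ran against Nr0b2 at Pearson r = −0.91 (exact permutation p = 0.0093, adjusted 0.084, n = 7) and Spearman rho = −0.64 (exact permutation p = 0.139, adjusted 0.50). Without the 2 livers farthest from the median of Cyp7a1, WT 2 and WT 3, r was −0.14 (exact permutation p = 0.783, n = 5), so the relation rests on these livers. Against Klb r was −0.71 (exact permutation p = 0.067, adjusted 0.303, n = 7) and rho −0.86 (exact permutation p = 0.024, adjusted 0.214), and r was −0.84 without the same 2 livers. With each library centred on its median, r against Klb was −0.24 and rho −0.39 (n = 7). Of the 9 pairs 0 passed at an adjusted p under 0.05, by r or by rho. The 5 Maf1 KO livers are too few for a correlation.

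The hepatocyte receptor of the ileal hormone gave different values for its 2 parts. Fgfr4 (chromosome 13, 55152640 to 55168759, plus strand) ran from 3.66 (WT 2) through a median of 4.90 to 5.14 in WT and stood at 4.34, 4.62, 4.13, 3.98 and 4.07 in Maf1 KO. The Maf1 KO livers lay below the 6 WT livers other than WT 2, which began at 4.64. Without WT 2 the groups lay apart, in either direction, for 12.6% of all genes. Maf1 KO minus WT was −0.49 log2 units (SE 0.22, adjusted p = 0.213 in limma), and −0.67 (SE 0.13, adjusted p = 0.0072) without WT 2. WT 2 lay below all of the Maf1 KO livers, so leaving it out was bound to widen the difference. Over the 24 alternatives the adjusted p ran from 0.0035 to 0.926. Fgfr4 is the most GC-rich member at 58.6%, and after the GC and length correction the difference was −0.02 (SE 0.10), with WT at 4.36 to 4.77 and Maf1 KO at 4.35 to 4.65. Klb, the co-receptor (chromosome 5, 65348314 to 65384007, plus strand, 49.6% GC), ran from 5.30 through 5.47 to 5.75 in WT and stood at 5.78, 5.35, 5.22, 5.71 and 5.42 in Maf1 KO. Its log2 difference was 0.01 (SE 0.12, adjusted p = 0.945), with a 95% interval from −0.25 to 0.28, and 0.04 with GC and length corrected.

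Neither transporter passed the test in limma, and both intervals lay within 0.5 log2 units of 0. Slc10a1, the basolateral uptake carrier (chromosome 12, 80953185 to 80968079, minus strand), ran from 8.96 through 9.15 to 9.49 in WT and stood at 9.33, 9.06, 9.51, 9.30 and 9.26 in Maf1 KO. Maf1 KO minus WT was 0.10 log2 units (SE 0.12, 95% interval −0.15 to 0.35, adjusted p = 0.559), and 0.04 (SE 0.11) with GC and length corrected. Abcb11, the canalicular export pump (chromosome 2, 69238282 to 69342616, minus strand), ran from 9.10 (WT 7) through 9.31 to 9.42 in WT, an SD that 8.88% of genes fell under. In Maf1 KO it stood at 9.61, 9.10, 9.60, 9.66 and 9.53, so that 4 of the 5 lay above all of WT and Maf1 KO 2 at its lower end. The log2 difference was 0.18 (SE 0.11, 95% interval −0.06 to 0.42, adjusted p = 0.294), and 0.09 (SE 0.10) after the GC and length correction. Abcb11 and Nr0b2 are both known FXR targets. The interval of Abcb11 spans 0 and Nr0b2 was selected on its own difference, so their directions are not compared.

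**Figure D3:**
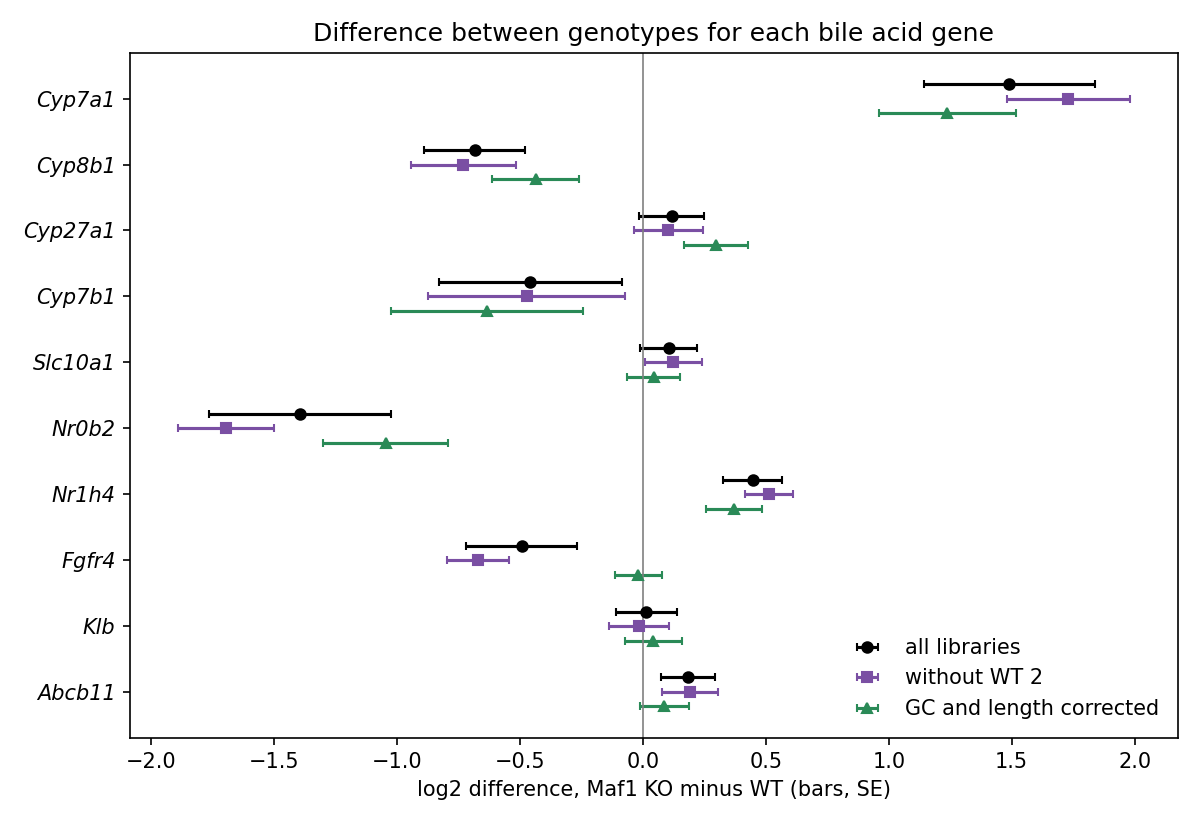
The horizontal axis gives the log2 difference, Maf1 KO minus WT, for the 10 genes on the vertical axis, with bars of 1 SE. Circles use all 12 libraries, squares leave out WT 2 and triangles follow the GC and length correction. Fgfr4 moves from −0.49 to −0.02 with the correction, while Cyp7a1 stays at 1.24 or more and Nr0b2 at −1.05 or less.

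Cyp7a1 and Nr0b2 are left out of the counts of tests that follow, which cover the other 8 members. In limma 0 of the 8 passed an adjusted p under 0.01 with an absolute log2 difference above 0.5, and 2 of 13304 genes did so (0.015%). An unadjusted p under 0.05 was met by 3 of the 8 (Nr1h4, Cyp8b1 and Fgfr4), against 23.1% of all genes. The WT and Maf1 KO values did not overlap for 0 of the 10, against 0.586% of all genes. Nothing about the members is read from these counts, since the same contrast had been known when they were chosen. The median log2 difference was 0.06 over the 10 and −0.02 over all genes, and 6 of the 10 were above 0. Without WT 2, 2 of the 8 passed (Nr1h4 and Fgfr4) against 6.79% of all genes. Their groups then did not overlap, against 12.6% of all genes, and WT 2, the library left out, alone had made them overlap. Without WT 2 the log2 difference was −0.73 (SE 0.21) for Cyp8b1, 0.10 for Cyp27a1, −0.47 for Cyp7b1, 0.12 for Slc10a1, 0.19 for Abcb11 and −0.02 for Klb. With 1 factor taken from the residuals 1 of the 8 passed (Cyp8b1) against 8.09%. This factor is unrelated to genotype by construction, so it left each difference as it was and changed only its SE. With library weights 3 passed (Fgfr4, Nr1h4 and Cyp8b1) against 15.2%, and WT 2 had the lowest of these weights (0.17). With GC and length corrected 0 of the 8 passed in limma, with WT 2 and without it, against 1 and 3 of 12482 genes. An unadjusted p under 0.05 was then met by 3 of the 8 (Cyp27a1, Nr1h4 and Cyp8b1), against 17.96% of all genes. With WT 2 also left out it was met by 2 (Cyp27a1 and Nr1h4), against 28.6%.

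Divided by exon length, the levels of the 10 genes spanned more than 5 log2 units in either genotype. Slc10a1 was highest in WT at 8.53 ± 0.19 log2 units per kb (SD, n = 7), followed by Cyp8b1 (8.01 ± 0.20), Cyp27a1 (7.65 ± 0.18), Abcb11 (6.98 ± 0.11) and Cyp7b1 (6.98 ± 0.70). Then came Nr1h4 (5.87 ± 0.23), Cyp7a1 (5.25 ± 0.73), Nr0b2 (4.06 ± 0.82), Klb (3.69 ± 0.16) and Fgfr4 (2.89 ± 0.49). Neighbours in this order had ranges that overlapped, except Slc10a1 and Cyp8b1, Cyp27a1 and Abcb11, and Klb and Fgfr4. In Maf1 KO Cyp7a1 stood at 6.73 ± 0.52 (SD, n = 5), above Cyp7b1 (6.52 ± 0.72) and Nr1h4 (6.32 ± 0.08), with overlapping ranges. Nr0b2 stood at 2.67 ± 0.48, and its range of 2.03 to 3.19 lay below that of Klb, 3.42 to 3.99.

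**Figure D4:**
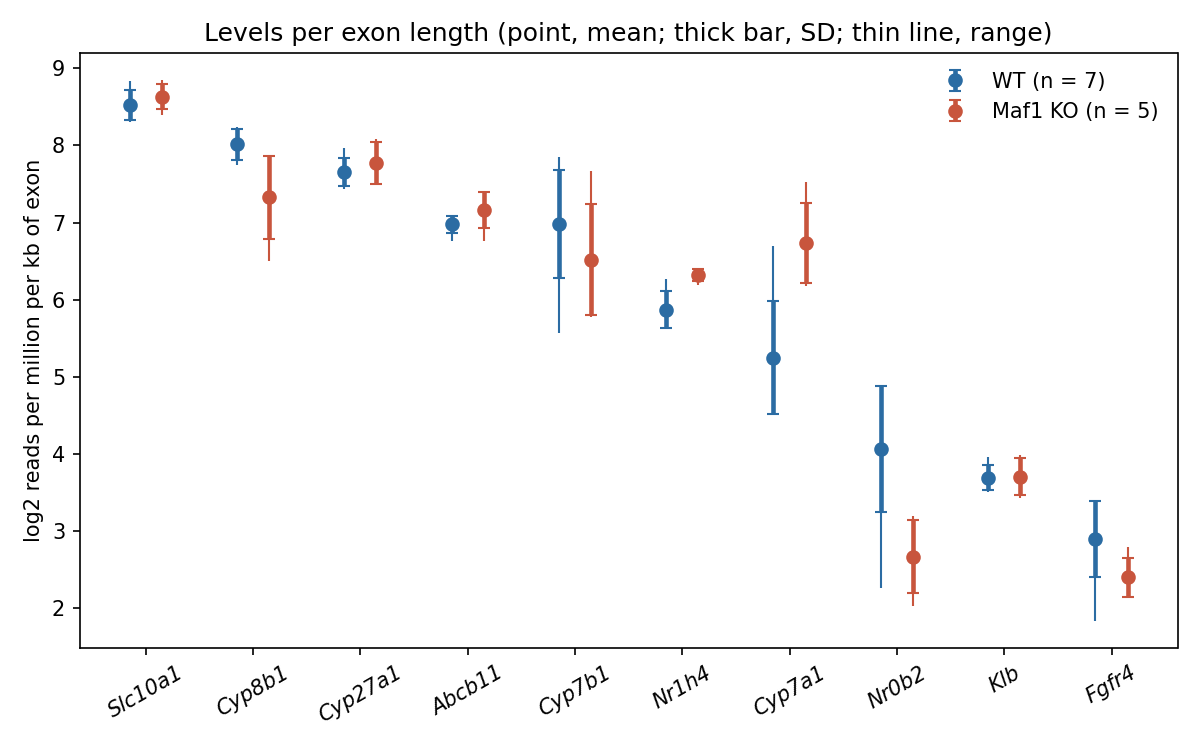
The vertical axis gives the log2 level per kb of exon for the 10 genes on the horizontal axis, ordered by their WT mean. Points are means, thick bars SD and thin lines the range of the libraries (n = 7 WT and n = 5 Maf1 KO). Slc10a1 lies above the other genes in both genotypes, and Cyp7a1 and Nr0b2 show the widest gaps between the genotypes, in opposite directions.

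Around the 10 genes, 74 further genes of bile acid synthesis, conjugation, transport and regulation were measured. In limma 0 of them passed, and 16 had an unadjusted p under 0.05, 5 with a higher and 11 with a lower mean in Maf1 KO, or 21.6% against 23.1% of all genes, of which 9.9% had a higher and 13.2% a lower mean. After the GC and length correction 12 had such a p, against 17.96% of all genes. The median log2 difference of the 74 genes was −0.11 in the deposited values. Among 14 enzymes of synthesis 3 had an unadjusted p under 0.05 in the deposited values, or 21.4% against 23.1% of all genes. Akr1d1, the 5-beta-reductase shared by both pathways, stood at 0.53 (SE 0.15, adjusted p = 0.192) and 0.32 corrected, and Akr1c6, a hydroxysteroid dehydrogenase, at 0.30 (SE 0.13) and 0.13 corrected. Cyp46a1, the cholesterol 24-hydroxylase of brain, stood at −1.78 (SE 0.42) and −1.35 corrected, on 2 to 67 reads. Of 8 conjugation genes 1 had such a p (12.5%), Acot8, a peroxisomal thioesterase, at −0.91 (SE 0.26) and −0.65 corrected. Slc27a5, the bile acid CoA ligase, was at −0.34 (SE 0.16) and −0.20 corrected, and Ugt1a1, a glucuronosyltransferase, at 0.27 (SE 0.18) and 0.21 corrected.

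Of 16 transporters 3 had an unadjusted p under 0.05, or 18.75% against 23.1% of all genes. Slco1a4, a sinusoidal uptake carrier, stood at 0.88 (SE 0.23, adjusted p = 0.192) and 0.64 corrected, and Abcb1a, a multidrug export pump, at 0.68 (SE 0.20) and 0.58 corrected. Abcc3, which exports bile acids to the blood, stood at −0.51 (SE 0.23) and −0.22 corrected. Of 36 regulators 9 had such a p, or 25.0% against 23.1% of all genes, 8 of them with a lower mean, and the median of the list moved from −0.23 to −0.04 with the GC and length correction. Rxra, the partner of FXR, was at −0.69 (SE 0.25) and at −0.25 after the correction. Zfp36l1, which destabilizes the Cyp7a1 mRNA, was at −0.44 (SE 0.16), with and without the correction. Nfil3, a repressor under clock control, was at −0.81 (SE 0.25) and −0.57 corrected.

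**Figure D5:**
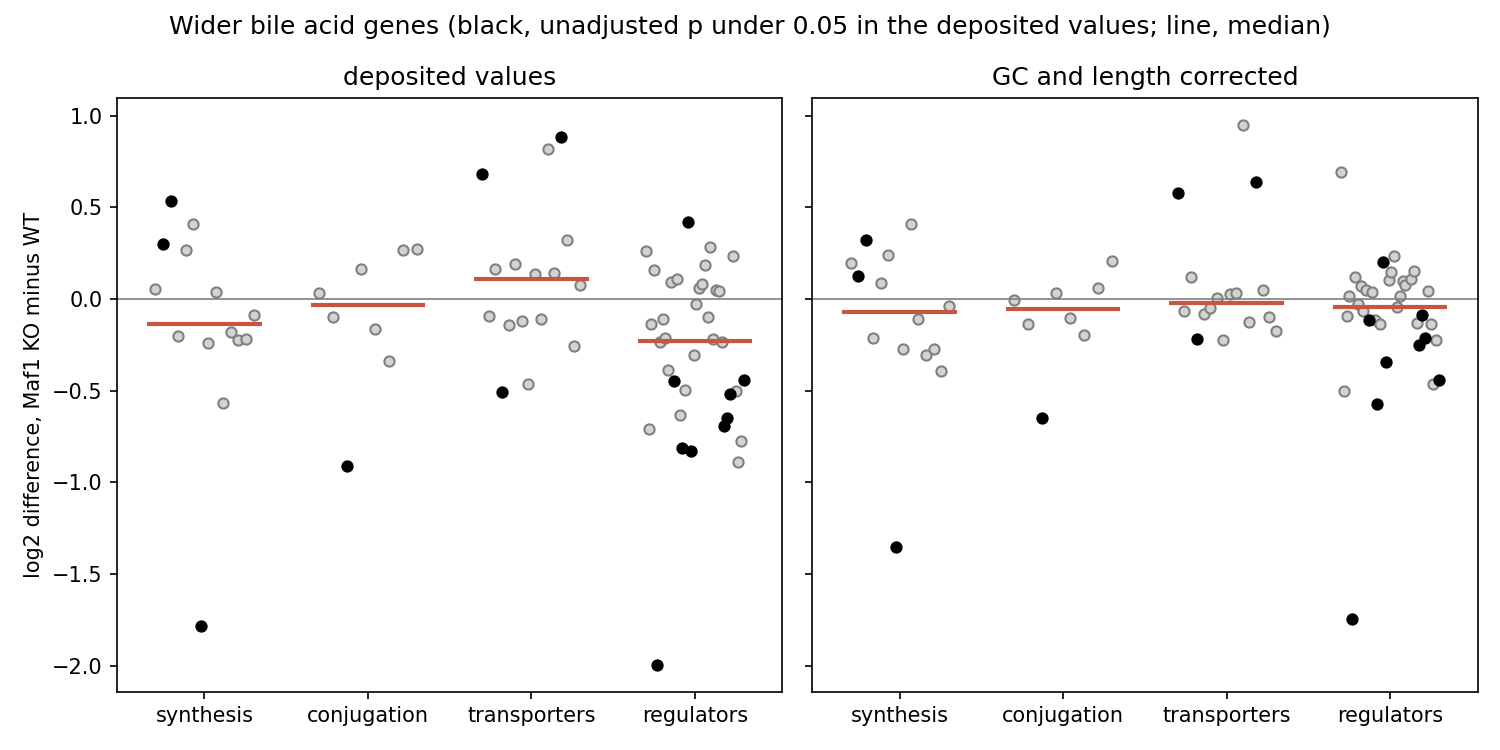
Each point is 1 of the 74 further genes, with the log2 difference, Maf1 KO minus WT, on the vertical axis, by function, from the deposited values (left) and after the GC and length correction (right). Lines are medians and black points are the 16 genes with an unadjusted p under 0.05 in the deposited values. The median of the regulators moves from −0.23 to −0.04, and that of the transporters from 0.11 to −0.02.

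Cyp7a1 follows the day in mouse liver, so 19 genes of the clock and its output were read as well. Of these 4 had an unadjusted p under 0.05, or 21.1% against 23.1% of all genes, 2 with a higher and 2 with a lower mean. Nr1d2 was at 0.42 (SE 0.18) and 0.20 corrected, Npas2 at −0.79 (SE 0.23) and −0.52 corrected, and Nfil3 as above. Markers of other cells were read by the summed level of each list. Hepatocyte markers (10 genes) spanned 16.56 to 16.95 log2 units in WT and 16.72 to 17.20 in Maf1 KO, a sum carried mainly by its most abundant gene. The median log2 difference of the list was 0.18 and 0.07 corrected, with genes of either sign. Cps1 was at a log2 difference of 0.58 (0.51 corrected) and Cyp3a11 at 1.08 (0.88 corrected). Hnf4a was at −0.21 and, with the sign changed, at 0.07 corrected. Cholangiocyte and gallbladder markers spanned 7.12 to 7.89 and 6.51 to 7.66 over 9 measured genes, of which Sox9 was at −0.67 (−0.65 corrected), Aqp1 at −0.48 (−0.21 corrected) and Slc4a2 at −0.56 (−0.10 corrected). The median of this list was −0.56 and −0.28 corrected. Kupffer and leukocyte markers (9 genes) spanned 8.38 to 9.23 and 8.39 to 8.94, with Cd74 at −0.61 (−0.31 corrected), Ptprc at 0.35 (0.14) and Vsig4 at 0.32 (0.20). Endothelial markers (8 genes) spanned 8.65 to 8.91 and 8.67 to 8.93, with Pecam1 at 0.10 (0.13 corrected), Dnase1l3 at −0.34 (−0.36) and Lyve1 at 0.24 (0.12). Stellate cell markers (8 genes) spanned 8.47 to 8.66 in WT and 8.67 to 8.88 in Maf1 KO, ranges that did not overlap. This sum follows its most abundant gene, Reln, the most and was not corrected for GC. The median log2 difference of the list was −0.005 and 0.15 corrected, with genes of either sign. Col3a1 was at 0.28 (0.18 corrected), Ecm1 at −0.69 (−0.30) and Reln at 0.30 (0.23). Of 3 ileal genes measured, all of which liver also expresses, Fabp2 was at −0.27 (−0.34 corrected), Slc10a2 at −0.02 (−0.17) and Apoa4 at −0.54 (−0.18). None of the measured markers passed in limma, and their part in the differences of the bile acid genes was not tested. In bulk liver fewer cells of a type cannot be told apart from less RNA per cell.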

How the data were processed

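Total RNA libraries (TruSeq Stranded Total RNA, Ribo-Zero Globin) of 7 WT and 5 Maf1 KO livers were sequenced by the authors in 1 lane. The authors trimmed the reads with cutadapt 1.8, aligned them with STAR 2.5.2b to GRCm38, counted them per gene with HTSeq 0.6.1 and scaled the libraries with TMM. The table holds log2 values deposited by the authors for 13304 genes. The file calls them RPKM. No gene length enters them, however: undoing the log and the scaling gave whole reads after subtraction of 0.5 for 100% of values, to within 0.001 of a read. Factors of unwanted variation were part of the tests of the study. Their kind is not given in the sources used here, and none enter the fit here. Depths stand beside the first values, and their number of reads limits the low genes most.

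The genotype difference of every gene was fitted in limma 3.58.1 (R 4.3.3, empirical Bayes without trend, Benjamini-Hochberg adjustment). A gene was called when the adjusted p was under 0.01 and its log2 difference exceeded 0.5 in size. GC content and exon length came from the NCBIM37 annotation joined by gene identifier (93.8% of genes), and a loess trend on both (span 0.4) was removed from each library for the correction. Positions are GRCm38, promoters RefSeq GRCm38.p6. The members and gene lists were chosen with earlier results of these data known. Genes named are the members, Maf1, from each list the 3 with the smallest unadjusted p, and the 5 most like Cyp7a1 and Nr0b2 in their deviations from the genotype means. Ddx3y and Cyp2a4 were chosen after their values were seen, and so were the 3 promoter motifs. Shared replicate numbers do not mark shared animals, so the fit has genotype alone and no block. The scores of pol III loci were not used here, and the columns used in no step number 0. Animals are the replicates. Each p-value in limma sets a difference against the spread between libraries, which empirical Bayes adjusts with that of all genes. With 1 library per mouse, this spread holds the mouse and its library preparation, which cannot be told apart.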

Additional observations from a re-analysis of the deposited data

Results flagged for a closer look

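The 10 genes in 2 genotypes made 20 groups. Of these, 5 held a value whose gap to the nearest other library was large against the range of its group. About 1 in 20 independent groups would by chance. The groups here share the same 12 libraries and are not independent, so the 5 are not set against that rate. WT 2 was apart for Nr0b2 at 2.44, with the other WT livers at 4.44 to 4.95, and for Fgfr4 at 3.66, with the others at 4.64 to 5.14. WT 7 was apart for Cyp7b1 at 6.68, with the others at 8.01 to 8.96, and for Abcb11 at 9.10, with the others at 9.29 to 9.42. Maf1 KO 2 was apart for Abcb11 at 9.10, with the others at 9.53 to 9.66. Cyp7a1 in WT 2, at 8.75 against 7.54 for the next, did not meet this measure.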

How the results depend on the processing

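The log2 difference of each member was recomputed under 24 settings. The residual factor, the variance trend and a filter on the mean log2 level cannot move it, and many other settings drop a single library. The count that follows was thus partly fixed in advance. In 235 of 240 pairs of member and setting the difference moved by less than 1 SD between replicates, pooled over the genotypes. The other 5 all hold the GC and length correction: Cyp27a1 at 0.35 with WT 2 also left out, and Fgfr4 at −0.02 to −0.05 in 4 settings. The sign changed in 5, for Slc10a1 with the replicate block and GC correction together (−0.02) and for Klb without WT 2, WT 6, Maf1 KO 1 or Maf1 KO 4 (lowest −0.06). The log2 difference of Cyp7a1 ran from 1.24 to 1.73, of Nr0b2 from −1.70 to −1.01, of Cyp8b1 from −0.82 to −0.40, of Nr1h4 from 0.33 to 0.55, of Cyp7b1 from −0.86 to −0.27 and of Fgfr4 from −0.67 to −0.02. Genes called, 2 with genotype alone, numbered 1076 with 1 residual factor, 2019 with library weights, 1 after the GC and length correction, 92 with that correction and 1 residual factor, 1 with the replicate block and 0 with the replicate block and the correction (limma, 734 at an unadjusted p under 0.05). Without 1 library in turn they numbered 2 to 904, the 904 without WT 2. Members called, counted over all 10 as a description that holds Cyp7a1 and Nr0b2, which were selected on this difference, numbered 0 with genotype alone, 3 with 1 residual factor, 5 with library weights and 0 to 4 without 1 library in turn, the 4 without WT 2. With the replicate block 0 were called. Over the 8 not so selected they numbered 1 with the factor, 3 with the weights and 0 to 2 without 1 library in turn, the 2 without WT 2. An unadjusted p under 0.05 was met by 2 to 4 of the 8, while the share of all genes with such a p ran from 4.31% (replicate block) to 50.4% (library weights). Further bile acid genes with such a p, 16 with genotype alone, numbered 32 with 1 residual factor (41.4% of all genes), 12 after the GC and length correction (17.96%) and 9 to 35 without 1 library in turn: 35 without WT 2 (43.5%), 27 without Maf1 KO 2 (33.4%), 10 without WT 6 (14.8%), 10 without Maf1 KO 5 (17.8%) and 9 without Maf1 KO 3 (12.1%). The blocked fits rest on the 10 libraries that share a number, whose deviations correlated at −0.46 to 0.23. Centring each library on its median moved the median log2 difference of all genes from −0.02 to 0.07. The 2 planned count models were not run, since the deposited unit is log2, and voom on the recovered reads, added after the data were seen with 2 further settings, called 2 genes and 0 members. The causes of these changes were not tested.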

Other observations

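Among 7928 genes with a mean log2 level of at least 3, the deviations from the genotype means that were most like those of Cyp7a1 over the 12 libraries were those of Slc38a9 (r = 0.92), Dock10 (0.92), Fem1c (0.92), Atp8a1 (0.91) and Ppp2r2a (0.91). Those most like Nr0b2 were Atox1 (r = 0.97), Narfl (0.95), Ankrd13a (0.95), Pafah2 (0.94) and Cib1 (0.93). The points share library, depth and GC trend: the genes most like Cyp7a1 hold 43.2% to 46.9% GC and those most like Nr0b2 51.8% to 59.3%, against a median of 49.5%. Atox1, a copper chaperone, was at a log2 difference of −1.08 (SE 0.28), and the others most like Nr0b2 at −0.24 to −0.15. Ppp2r2a, a phosphatase subunit, was at 0.54 (SE 0.19), and the others most like Cyp7a1 at 0.12 to 0.37. These differences were not corrected for GC, which is 59.3% in Atox1.

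Maf1 KO 4, the liver with the highest Cyp7a1 and the lowest Cyp8b1, had 5758 reads of Cyp2a4, a cytochrome P450 known to be higher in female mouse liver, against 4 to 203 in the other 11 libraries. Its reads of Ddx3y numbered 6921. The relation of this library to the bile acid genes was not tested, and without it the log2 difference of Cyp8b1 was −0.48 and that of Cyp7b1 −0.27.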
